A study of Rattus norvegicus with 9 samples.

Results

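Atrial-type isoforms are gene products that the heart makes mainly in its atria, and 5 of them were followed in left ventricular tissue: Myl4 and Myl7 (the atrial essential and regulatory myosin light chains), Sln (sarcolipin), Kcnj3 (a subunit of the acetylcholine-gated potassium channel) and Bmp10 (a secreted growth factor). They were chosen by name among the 35843 genes of the expression table, and each name had 1 row. RNA-seq had been done on hearts of adult male Sprague-Dawley (SD) rats, 3 in each of 3 groups, at day 28. Rats of group Sham had surgery without coronary ligation and received saline. Rats of group MI had the left anterior descending coronary artery tied off, which infarcts the left ventricle, and also received saline by daily gavage. Rats of group DAPA (1st d) had the same ligation and received dapagliflozin, an inhibitor of the sodium-glucose cotransporter SGLT2, at 1 mg/kg by daily gavage from day 1. The model is surgical and no allele was altered. The study took mainly the infarct border for its molecular work. For RNA-seq it names the left ventricle, and infarct myocardium in groups MI and DAPA (1st d), so the zone sequenced is not settled. Each library is a mixture of muscle and other cells.

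Myosin in heart muscle carries an essential and a regulatory light chain, and the atrial forms (Myl4, Myl7) and ventricular forms (Myl3, Myl2) are separate genes that fill the same places on the myosin head. Sarcolipin, like its ventricular relative phospholamban (Pln), is a small membrane peptide that inhibits the calcium pump SERCA, while Kcnj3 pairs with Kcnj5 in the channel through which the vagus nerve slows the atria. Bmp10 acts through the receptor Acvrl1 and is made in trabeculated myocardium of the embryo and in the right atrium of the adult. The embryonic ventricle expresses Myl4, and the return of fetal and atrial genes, of which Nppa is the textbook example, is a known feature of injured ventricular muscle.

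Because Myl4 and Myl7 were the members that reached higher levels in group DAPA (1st d), the sequences at their annotated starts are shown, each running 5′ to 3′ from 250 bases before to 50 bases after the start (RefSeq, build GRCr8). The Myl4 window is chr10:89975900-89976199 on the plus strand and the Myl7 window is chr14:84996575-84996874 on the minus strand. Each window lies inside the span that RefSeq gives its gene, so RefSeq also holds transcripts of that gene that begin further upstream. Capitals mark matches, on either strand, to the E-box CANNTG or the TATA box TATAAA.

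Myl4: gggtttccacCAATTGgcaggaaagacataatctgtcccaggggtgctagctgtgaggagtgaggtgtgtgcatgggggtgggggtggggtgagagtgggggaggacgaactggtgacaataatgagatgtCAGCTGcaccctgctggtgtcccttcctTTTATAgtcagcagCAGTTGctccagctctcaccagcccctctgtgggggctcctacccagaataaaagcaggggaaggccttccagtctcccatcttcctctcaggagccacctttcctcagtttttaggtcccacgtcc
Myl7: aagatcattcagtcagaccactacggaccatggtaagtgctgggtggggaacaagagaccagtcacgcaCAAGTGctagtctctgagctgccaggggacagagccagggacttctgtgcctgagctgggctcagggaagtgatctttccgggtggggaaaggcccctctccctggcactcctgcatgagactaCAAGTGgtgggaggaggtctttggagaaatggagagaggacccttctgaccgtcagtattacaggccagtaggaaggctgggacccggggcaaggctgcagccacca

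The Myl4 window held 3 E-boxes and 1 TATA box (TTTATA, read on the other strand), and the Myl7 window held 2 E-boxes and no TATA box. An E-box was present in 72.1% and a TATA box in 14.2% of all 33469 rat windows of this length. Neither window held a CArG box, a MEF2 site, GATAA, the MCAT element CATTCC or the NKX2-5 element TNAAGTG, which were found in 1.64%, 3.29%, 26.5%, 14.2% and 11.5% of all windows. No marked matches overlapped. Of the other members, the table gave a window for Bmp10, with 2 GATAA matches and 1 E-box, and none for Sln or Kcnj3. A match describes the letters in the window and was not tested for use by any factor.

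The libraries differed in ways that bear on every value below. Whole reads could be recovered from the deposited values (13601888 to 17212030 reads per rat), and the share of reads on the mitochondrial genome was 63.2% ± 3.18 in group Sham, 13.8% ± 6.15 in MI and 25.6% ± 7.42 in group DAPA (1st d) (SD, n = 3 each). FPKM, the unit of the table, is reads per kilobase of gene, scaled to the size of the library, and the denominators of the authors ran from 0.512 to 0.619 times the recovered reads in group Sham but from 0.954 to 1.298 times in the other rats. The 9 general cardiomyocyte markers averaged 8.05 in group Sham, 7.60 in MI and 8.82 in group DAPA (1st d) on the log2(FPKM + 1) scale, and rat MI 2 was lowest of all at 6.41. Fibroblast and matrix markers summed to between 430 and 704 FPKM in group Sham, 3652 to 7200 in MI and 2175 to 3980 in group DAPA (1st d). In bulk tissue, fewer cells of a type and less RNA per cell cannot be told apart.

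By group mean Myl4 was the most abundant member, though not in Sham 1, and it rose in group DAPA (1st d). Its FPKM (ENSRNOG00000050675) was 0.721, 21.9 and 3.29 in the rats of group Sham, 17.2, 8.90 and 61.8 in MI, and 59.1, 109 and 49.99 in group DAPA (1st d). The means were 8.64 ± 11.6, 29.3 ± 28.4 and 72.7 ± 31.7 (SD, n = 3 each). Every rat of group DAPA (1st d) lay above every rat of group Sham, but Sham 2 and MI 3 stood far above their own groups, so group MI overlapped both of the others. The number of reads behind these values ran from 6 in Sham 1 to 1391 in DAPA 2, and the FPKM of the same rats differed 151-fold. In the RefSeq gene table (assembly GRCr8, not the build of the files) the span of Myl4 overlaps the end of its neighbour Cdc27, and how reads there were assigned is not given in the sources used here.

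By group mean Myl7 was at a fraction of the level of Myl4, and it also rose in group DAPA (1st d). In Sham 1 Myl7 stood above Myl4, and in MI 1 it was close to Myl4. Its FPKM (ENSRNOG00000014409) was 1.20, 3.59 and 1.82 in group Sham, 15.4, 0.412 and 2.81 in MI, and 17.4, 17.7 and 9.56 in group DAPA (1st d), from 15 to 615 reads per rat. The means were 2.20 ± 1.24, 6.21 ± 8.06 and 14.9 ± 4.62 (SD, n = 3 each). Again the groups DAPA (1st d) and Sham did not overlap, while group MI spanned nearly the whole range: MI 1 was as high as the dapagliflozin-treated rats and MI 2 was the lowest of all 9 rats.

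**Figure D1:**
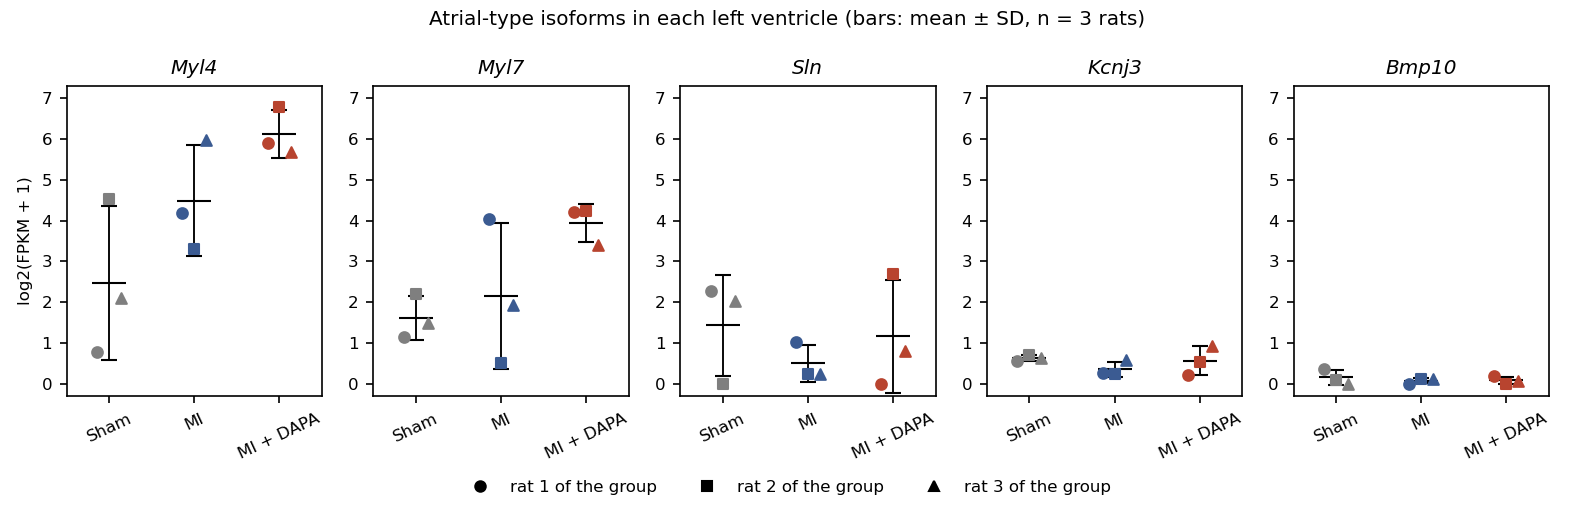
Level of each atrial-type isoform in each rat as log2(FPKM + 1), with the mean and SD of each group of 3 rats. Myl4 and Myl7 in the rats of group DAPA (1st d) all sit above those of group Sham, group MI is spread widely for both, and Sln, Kcnj3 and Bmp10 stay near the bottom of the axis in most rats.

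Dapagliflozin-treated infarcted hearts were then set against sham hearts, which asks how far the members stood from the level of uninjured tissue. With limma on log2(FPKM + 1), Myl4 was 3.65 log2 units higher (SE 0.84, Benjamini-Hochberg adjusted p = 0.0173 over 13359 genes). Myl7 was 2.33 log2 units higher (SE 0.33, adjusted p = 0.00380). A gene was called at an unadjusted p under 0.05 and a log2 fold change beyond 1 in either direction, the criteria of the study, and by these 2 of the 3 members tested were called higher and none lower, where 9.54% of all genes tested were called higher and 8.16% lower. Groups did not overlap for 2 of the 5 members, against 46.5% of the genes tested. Both calls were kept in all alternatives, although the size of the Myl4 difference fell to 2.81 without Sham 1 and grew to 4.68 without Sham 2. With 3 rats against 3 an exact two-sided permutation test cannot give a p below 0.1, and it gave 0.1 for each of these genes.

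In group MI compared with group Sham, which asks what the infarct alone did, no member was called. The limma log2 difference was 2.02 for Myl4 (SE 1.01, adjusted p = 0.155) and 0.54 for Myl7 (SE 0.82, adjusted p = 0.629). Of all 13485 genes tested, 12.1% were called higher and 10.3% lower in MI, and the groups did not overlap for 54.6%, whereas they overlapped for each of the 5 members. The Myl4 value rested on which rats were included: it was called at 3.05 without Sham 2 (adjusted p = 0.0383) and at 2.61 without MI 2 (adjusted p = 0.112). The 6 values with 1 rat left out ran from 1.18 to 3.05. Myl4 was also called at 2.90 when each library was scaled to all its recovered reads (adjusted p = 0.0215). Under that scaling 6098 of 13534 genes tested were called higher and the median of all genes was 0.92. Without MI 1 the Myl7 difference turned to -0.40. The exact permutation p was 0.3 for Myl4 (limma p = 0.0856) and 0.8 for Myl7 (limma p = 0.527).

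Group DAPA (1st d) compared with group MI shares its infarcted control rats with the comparison above, so the values are given side by side and were not combined. Myl4 was 1.63 log2 units higher with dapagliflozin (SE 0.66, limma p = 0.0440, exact permutation p = 0.3, adjusted limma p = 0.558) and was called by the unadjusted criteria. Myl7 was 1.79 log2 units higher (SE 0.82, limma p = 0.0667, exact permutation p = 0.2, adjusted limma p = 0.558) and was not called. That is 1 of the 2 members tested, in a comparison in which 0.951% of 13251 genes were called higher, 1.11% were called lower, 13.8% did not overlap between groups, and no gene passed an adjusted limma p of 0.05 (1125 passed unadjusted). The call of Myl4 was lost in a fit of all 9 rats (adjusted p = 0.597), with no filter on low values (adjusted p = 0.675) and in 5 of the 6 fits with 1 rat left out, MI 3 being the exception; Myl7 was called without MI 1 (2.73, adjusted p = 0.589) and in the fit of all 9 rats (adjusted p = 0.533). No member was free of overlap between these groups: DAPA 3 lay below MI 3 for Myl4 and below MI 1 for Myl7.

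Sln rested on few reads, although its mean in group Sham (2.30 FPKM) was near that of Myl7 (2.20). Its FPKM (ENSRNOG00000009047) was 3.85, 0 and 3.05 in group Sham, 1.04, 0.190 and 0.175 in MI, and 0, 5.43 and 0.742 in group DAPA (1st d). The table lists Sln at 0 in Sham 2 and DAPA 1, where a count of 0 allows up to 0.980 and 0.610 FPKM (3 reads), and all 9 rats together gave 58 reads, of which DAPA 2 gave 26. No group was separate from another. It passed the filter of at least 1 FPKM in at least 3 of 6 rats in the comparisons with group Sham only, and there the limma log2 differences were -0.93 for group MI (SE 0.60, adjusted p = 0.261) and -0.27 for group DAPA (1st d) (SE 0.80, adjusted p = 0.826). Without Sham 2, group MI was 1.64 lower on the log2 scale and called (adjusted p = 0.0165), from libraries with 1 to 12 Sln reads each. Such counting limits cover sampling of reads only.

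Kcnj3 and Bmp10 were under the filter in every comparison. Kcnj3 (ENSRNOG00000005369) had FPKM of 0.471, 0.640 and 0.559 in group Sham, 0.198, 0.186 and 0.485 in MI, and 0.166, 0.443 and 0.908 in group DAPA (1st d), from 5 to 30 reads per rat. The rats of group Sham were alike and those of group DAPA (1st d) spanned the range of both other groups. Bmp10 (ENSRNOG00000009316) had 13 reads in all 9 rats together and at most 4 in any, with FPKM of 0.288, 0.0734 and 0 in group Sham, 0, 0.0854 and 0.0787 in MI, and 0.137, 0 and 0.0417 in group DAPA (1st d). At this depth a difference between groups in Bmp10 was not detectable, since 3 reads correspond to 0.118 to 0.258 FPKM. The exact permutation p ran from 0.2 to 0.7 for Kcnj3 and from 0.7 to 1 for Bmp10, and after adjustment over the 15 tests of the 5 members no p was below 0.75.

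The order of the group means was DAPA (1st d), MI, Sham for both light chains and Sham, DAPA (1st d), MI for Sln, Kcnj3 and Bmp10. Neighbours in these orders overlapped in every case, and the ends of the order were separate for Myl4 and Myl7 only. The light chains did not keep a fixed proportion to each other: the ratio of their FPKM, Myl4 over Myl7, was 0.599, 6.11 and 1.81 in group Sham, 1.12, 21.6 and 22.0 in MI, and 3.39, 6.16 and 5.23 in group DAPA (1st d). Within group MI, therefore, the rat with the most Myl7 (MI 1) was not the rat with the most Myl4 (MI 3). The gene models behind these per-length values were 795 bases for Myl4 and 2064 for Myl7, and another model length would scale every ratio alike.

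Each atrial light chain was next set against its ventricular counterpart in the same library, where the denominators of the libraries cancel. Myl3, the ventricular essential light chain, had a mean FPKM of 1449 ± 330 in group Sham, 1531 ± 1007 in MI and 3372 ± 1233 in group DAPA (1st d). Myl4 made up 0.0594%, 1.65% and 0.180% of the summed FPKM of Myl4 and Myl3 in group Sham, 1.14%, 1.61% and 2.36% in MI, and 1.68%, 2.33% and 2.32% in group DAPA (1st d). The ventricular form thus made up over 97% of the pair in every rat. Groups DAPA (1st d) and Sham were separate, narrowly, because Sham 2 had 1.65% (exact permutation p = 0.1). On the log2 scale with the pseudocount the same ratio overlapped, with a difference of 2.48 (exact permutation p = 0.2).

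Myl2, the ventricular regulatory light chain, had a mean FPKM of 97.9 ± 15.4 in group Sham, 94.9 ± 72.4 in MI and 233 ± 44.1 in group DAPA (1st d), and was called higher in the last group against group MI (1.59 log2, SE 0.57, adjusted p = 0.558) and against group Sham (1.24, SE 0.20, adjusted p = 0.00546). The call against group MI was lost in 6 of 14 alternatives, which include each fit with 1 rat left out except that without MI 3 (0.96 to 2.18). Myl7 made up 1.36%, 3.01% and 1.96% of Myl7 and Myl2 in group Sham, 16.2%, 1.299% and 1.59% in MI, and 7.59%, 5.87% and 4.51% in group DAPA (1st d). MI 1 stood apart from every other rat, and the remaining rats of group MI lay within or below group Sham. Between groups DAPA (1st d) and Sham the log2 ratio was 1.10 higher and the groups were separate (exact permutation p = 0.1). Between groups DAPA (1st d) and MI the log2 ratio to the ventricular counterpart differed by 0.30 for Myl4 (exact permutation p = 0.7) and 0.20 for Myl7 (exact permutation p = 0.8). With a pseudocount of 0.1 these were 0.36 and 0.74, and with 1 rat left out they ran from 0.035 to 0.54 and from -0.50 to 1.11.

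**Figure D2:**
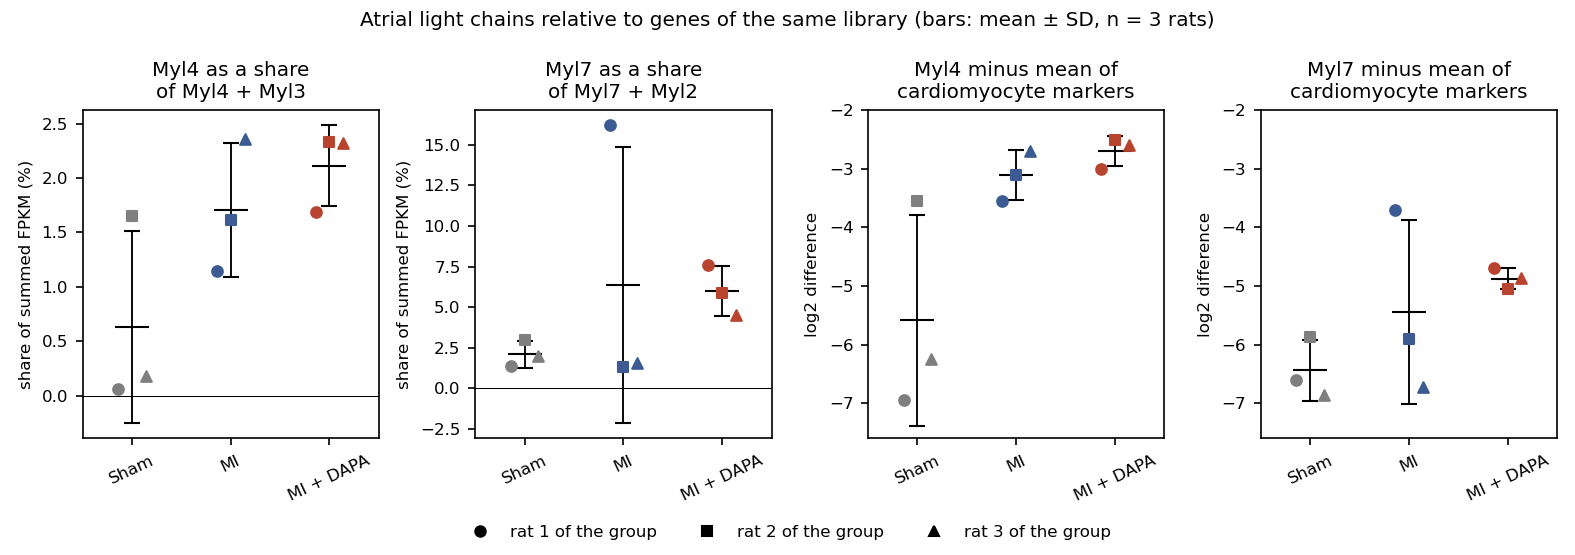
Myl4 and Myl7 in each rat as a share of the summed FPKM with the ventricular light chain of the same kind (percent), and as the difference from the mean of 9 cardiomyocyte markers of the same library (log2(FPKM + 1) units), with the mean and SD of 3 rats per group. The rats of group DAPA (1st d) lie above those of group Sham in all 4 panels, whereas group MI reaches 16.2% for Myl7 in a lone rat, so that its lower SD bar for Myl7, like that for Myl4 in group Sham, passes below 0.

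Relative to the 9 cardiomyocyte markers, Myl4 averaged -5.58 ± 1.80 in group Sham, -3.11 ± 0.43 in MI and -2.70 ± 0.26 in group DAPA (1st d) (log2 units, SD, n = 3 each). Groups MI and Sham were separate on this measure only by the narrowest margin, since Sham 2 and MI 1 both read -3.54. Myl7 averaged -6.44 ± 0.51, -5.44 ± 1.57 and -4.88 ± 0.18, with groups DAPA (1st d) and Sham separate. Between groups DAPA (1st d) and MI these differences were 0.41 for Myl4 (exact permutation p = 0.2) and 0.57 for Myl7 (exact permutation p = 0.6), beside 1.63 and 1.79 before the markers were taken off, and with a pseudocount of 0.1 the value for Myl7 was 1.09. All 9 cardiomyocyte markers had a positive log2 difference between groups DAPA (1st d) and MI, with a median of 1.31 against -0.02 for all genes, although only Tnni3 (cardiac troponin I) was called (1.56, SE 0.62, adjusted p = 0.558), a call lost in 7 of 14 alternatives (without MI 1, MI 2, DAPA 1 or DAPA 2 among them, and 0.95 to 2.09 with 1 rat left out). Against group Sham the markers were split. In group MI, Myh6 and Tnni3 were called lower and none higher (2 of 9, where 10.3% of all genes were called lower), with a median of -0.22. In group DAPA (1st d), 5 of 9 were called higher (9.54% of all genes) and Myh6 lower, with a median of 1.16. The lower call of Myh6 there was lost in 8 of 14 alternatives. How much of the change in the atrial light chains goes with the amount of muscle RNA was not tested. Over the 42 relations of this kind that were examined, the smallest adjusted permutation p was 0.42.

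Sln and Kcnj3 gave no separation from their counterparts. Pln had a mean FPKM of 307 ± 73.9 in group Sham, 252 ± 172 in MI and 517 ± 195 in group DAPA (1st d), so that sarcolipin stayed far below phospholamban, and the log2 ratio of Sln to Pln differed by -0.42, -0.55 and -0.98 in the 3 comparisons (exact permutation p from 0.4 to 0.6). Pln lies within the span of the larger gene Cep85l, and reads of that gene could be counted with it. Kcnj5, the partner of Kcnj3, had 1.55 ± 1.42, 1.46 ± 1.08 and 2.32 ± 0.822 FPKM in groups Sham, MI and DAPA (1st d), and the ratio of Kcnj3 to Kcnj5 overlapped in every comparison.

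The 14 other atrial-enriched genes did not move as a block. In group MI compared with group Sham, 4 of the 9 tested were called higher (12.1% of all genes) and 1 was called lower (10.3% of all genes). The median log2 difference of the 9 was 0.01, against -0.01 for all genes. The higher ones were Dkk3, a secreted protein of the Dickkopf family (3.52, SE 0.37, adjusted p = 0.00130), Pam, the enzyme that amidates peptide hormones in atrial granules (1.99, SE 0.37, adjusted p = 0.00678), Nr2f2, a transcription factor of atrial identity (1.57, SE 0.14, adjusted p = 0.00102) and Nppa, the atrial natriuretic peptide (4.55, SE 0.87, adjusted p = 0.00739). Kcna5, the atrial ultrarapid potassium channel, was the lower one (-1.94, SE 0.40, adjusted p = 0.00943). Nppa and Kcna5 were singled out after their values were seen. Dkk3 and Nr2f2 are also made by cells other than muscle, and the fibroblast markers in these rats rose in the same comparison (7 of 7 called higher, 12.1% of all genes), so which cells made these transcripts cannot be told apart.

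Nppa had the largest fold of the atrial-enriched genes tested in group MI compared with group Sham. Its FPKM was 200, 96.5 and 65.9 in group Sham, 3741, 626 and 7169 in MI, and 6493, 8660 and 4155 in group DAPA (1st d), with every infarcted rat above every sham rat. Within group MI the ranking of the rats was that of Myl4, with MI 3 highest and MI 2 lowest. The mean of the 9 cardiomyocyte markers had this order as well (8.66 in MI 3, 7.73 in MI 1 and 6.41 in MI 2, log2(FPKM + 1)), so it is not particular to Nppa and Myl4. Between groups DAPA (1st d) and MI the difference was 1.27 log2 (SE 0.90, adjusted p = 0.628) and none of the 10 other atrial-enriched genes tested was called. Gja5 (connexin 40) had the smallest p of them in that comparison, at 0.66 log2 (SE 0.12, adjusted p = 0.558), under the fold threshold. Mybphl, whose product marks atrial myosin filaments, was listed at 0 in 6 rats and reached 0.137 FPKM at most, so that Mybphl, Bmp10 and Kcnj3, all enriched in atrial tissue, were below 1 FPKM in each library.

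**Figure D3:**
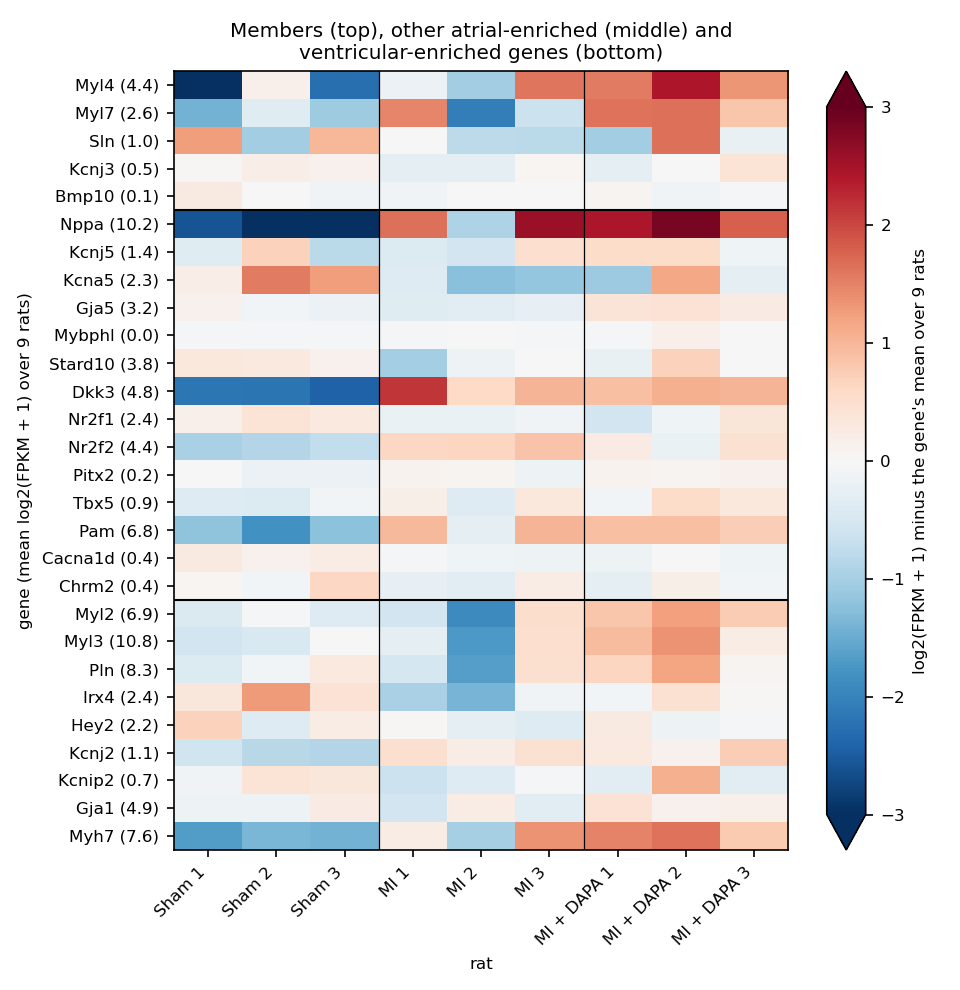
Members, other atrial-enriched genes and ventricular-enriched genes in each of the 9 rats, as log2(FPKM + 1) minus the mean of the gene over the rats (colour, cut at 3 in both directions), with that mean in brackets. Nppa and Myh7 are lowest in the sham rats, Myl4 is lowest in Sham 1 and Sham 3, and all 3 genes are high in MI 3 and in all rats given dapagliflozin, MI 2 is pale or blue for most muscle genes, Myl7 is high in MI 1 and in the rats given dapagliflozin, and Sln, Kcnj3 and Bmp10 show little or scattered change.

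Of the 9 ventricular-enriched genes, 8 were tested in group MI compared with group Sham. Myh7, the slow myosin heavy chain that the rat ventricle makes before birth and again under load, was higher (1.68, SE 0.53, adjusted p = 0.0412), as was the inward rectifier channel gene Kcnj2 (1.16, SE 0.21, adjusted p = 0.00623). Kcnj2 had 0.203 to 0.455 FPKM in group Sham and 1.59 to 2.07 in MI. It passed the filter through the rats of group MI alone, so only a rise could be tested. Irx4, a transcription factor of ventricular identity, was lower (-1.51, SE 0.39, adjusted p = 0.0213), a call that was lost when libraries were scaled to all recovered reads. In group DAPA (1st d) compared with group MI, 7 of the 8 tested had positive differences with a median of 1.03, and Myl2 was called. The 2 members tested there had a median of 1.71 and all genes -0.02.

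**Figure D4:**
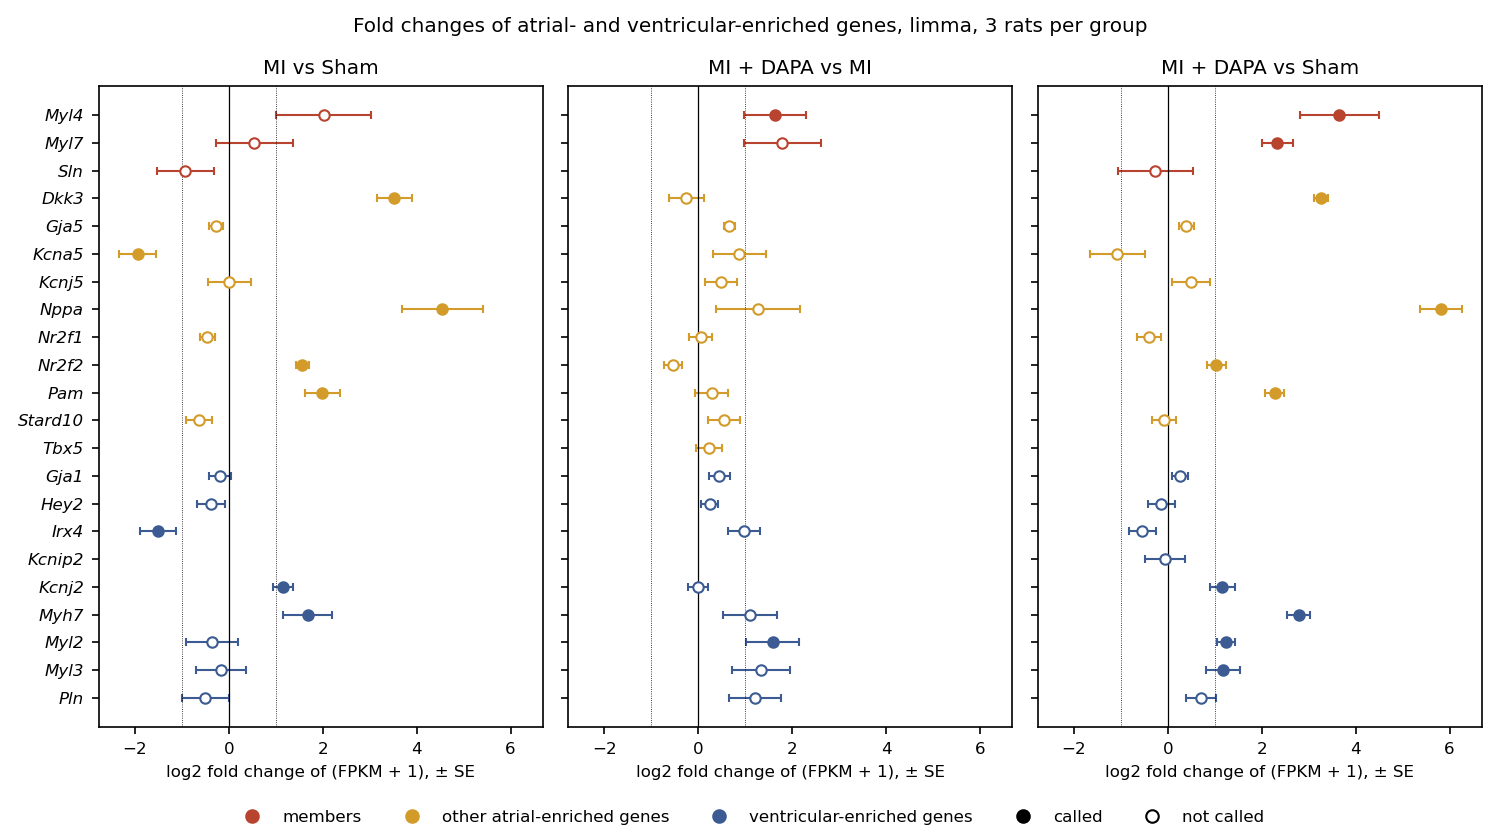
Log2 fold change with its SE from limma for the members, the other atrial-enriched and the ventricular-enriched genes that passed the filter, in the 3 comparisons, where filled points met the criteria of p and fold. Myl4 and Myl7 lie to the right in group DAPA (1st d) compared with group MI at 1.63 and 1.79, beside Myl2 at 1.59, and at 3.65 and 2.33 compared with group Sham, beside Nppa at 5.81.

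Among the 11 myosin light chain genes found, none was called in group MI compared with group Sham. In group DAPA (1st d) compared with group Sham, 5 of the 10 tested were called higher and none lower, where 9.54% of all genes were called higher and 8.16% lower. The 5 were Myl4 and Myl7 with the ventricular Myl2 (1.24) and Myl3 (1.17, SE 0.36, adjusted p = 0.0444, not called without Sham 1 or DAPA 2) and the fast skeletal chain Myl1 (1.89, SE 0.36, adjusted p = 0.00965). Myl1 was thus higher too, from 4.05 to 11.2 FPKM in group Sham and from 23.3 to 44.1 in group DAPA (1st d), while the skeletal muscle markers summed to between 16.8 and 29.9 FPKM in every rat and none of the 3 tested was called. Cytoplasmic and smooth muscle chains were not called: Myl6 had -0.63 in group MI compared with group Sham (SE 0.16, adjusted p = 0.0185), under the fold threshold. None of the 5 light chain kinase and phosphatase genes tested was called in any comparison; the cardiac kinase Mylk3 had 0.93 in group DAPA (1st d) compared with group Sham (SE 0.25, adjusted p = 0.0276), under the fold threshold.

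Around Sln, none of the SERCA genes was called in any comparison. Atp2a2, the cardiac pump itself, had 0.94 in group DAPA (1st d) compared with group MI (SE 0.34, adjusted p = 0.558). Around Kcnj3, 10 of the 15 genes of the channel and its inputs were tested, and Rgs2, which speeds the shut-off of G proteins, was the only call: it was higher in group MI (2.35, SE 0.33, adjusted p = 0.00260) and in group DAPA (1st d) (1.80, SE 0.42, adjusted p = 0.0186), each compared with group Sham. The muscarinic receptor Chrm2 was under the filter.

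Around Bmp10, whose own transcript was nearly absent, 16 of the 23 genes found were tested. In group MI compared with group Sham, Id2, an inhibitor of DNA binding that BMP signals induce in many cells, was higher (2.56, SE 0.18, adjusted p = 0.000953), as was the receptor Bmpr1a. The related target Id1 was lower (-1.40, SE 0.24, adjusted p = 0.00489), as were the BMP10 receptor Acvrl1 (-1.24, SE 0.14, adjusted p = 0.00148) and the sarcomere gene Mybpc3 (-1.62, SE 0.58, adjusted p = 0.0632, from -2.16 to -0.94 with 1 rat left out and not called without Sham 2, Sham 3 or MI 2). The calls of Id1, Acvrl1 and Mybpc3 were lost when libraries were scaled to all recovered reads, which took the median of all genes from -0.01 to 0.92 in this comparison, and the calls of Id2, Dkk3, Pam, Nr2f2 and Nppa were kept. Markers of endothelium, the tissue in which Acvrl1 is mainly made, were lower in the same comparison (3 of 4 called lower, 10.3% of all genes), and all 3 calls were lost under that scaling too. In group DAPA (1st d) compared with group MI none of the 16 was called.

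Markers of the sinus node, the pacemaker tissue of the atrial wall, and of the conduction system were measured too. Which part of the heart their transcripts came from was not tested. Of the 8, 4 were tested, and Isl1 was listed at 0 in all 9 rats. Hcn4, the pacemaker channel, was higher in group MI (1.54, SE 0.57, adjusted p = 0.0701, not called without Sham 1 or Sham 3) and in group DAPA (1st d) (2.31, SE 0.32, adjusted p = 0.00340) compared with group Sham, and Cntn2, a conduction system adhesion molecule, was higher in both as well (1.56 and 1.57). Cntn2 had 0.193 to 0.316 FPKM in group Sham. It passed the filter through the infarcted rats alone, so only a rise could be tested. Tbx3, a repressor of working muscle genes in the node, was lower in group MI (-1.67, SE 0.26, adjusted p = 0.00383), a call lost when libraries were scaled to all recovered reads. Mesothelial markers summed to between 32.7 and 39.8 FPKM in group Sham, 9.37 to 95.1 in MI and 10.1 to 14.6 in group DAPA (1st d). The sham sum was mostly Wt1 (32.4 to 37.9 FPKM), and the markers did not move together. In group MI compared with group Sham, 2 were tested: Wt1 was called lower (-2.12, SE 0.24, adjusted p = 0.00150) and Msln higher (3.55, SE 0.96, adjusted p = 0.0255). Leukocyte markers were higher in group MI (4 of 4 called).

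By the smallest root mean square difference of log2(FPKM + 1) over the 9 rats, each gene taken around its own mean, the genes most like Myl4 among 14156 were Myh7 (0.93), the muscle elongation factor Eef1a2 (0.95) and the hepcidin gene Hamp (0.98). These distances are large beside the spread of Myl4 itself, which was 1.88. Myh7 had a mean FPKM of 67.6 ± 7.60, 268 ± 201 and 484 ± 138 in groups Sham, MI and DAPA (1st d). The genes most like Myl7, whose own spread was 1.35, were Nmrk2, a muscle kinase of the NAD salvage pathway (0.51), the glycerol phosphate dehydrogenase gene Gpd1 (0.62) and the collectin gene Colec11 (0.65). For Sln, from a few reads per rat, they were AABR07039697.1 (0.46) and a pair of unnamed loci.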

How the data were processed

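Left ventricular RNA of 9 rats was sequenced as poly-A selected paired-end libraries by the authors, who deposited FPKM values per gene, 1 column per rat. The submitters' processing notes name HISAT2 2.0.5, StringTie 1.3.3b, featureCounts 1.5.0-p3 and DESeq2. The study used DESeq2 for its own differential tests, and the roles of the other tools and the genome build are not given in the sources used here. The number of columns not used was 0. Groups came from the sample titles. Nothing says how the FPKM denominators were set. Whole reads and gene model lengths were recovered from the steps of the low values for all 18896 genes that 4 or more libraries detected; on simulated data 99.5% of genes came out exact. Recovered reads served for depth, counting limits (3 reads for a count of 0; counting error only) and 1 alternative scaling.

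The members, gene lists and tests were chosen with earlier results of these data known. Each comparison was fitted with limma 3.58.1 (R 4.3.3, trend in the variance prior) on log2(FPKM + 1), for genes with at least 1 FPKM in at least 3 of the 6 rats, so fold changes of low genes are understated. A call needed an unadjusted p below 0.05 together with a log2 fold change beyond 1 either way, and Benjamini-Hochberg adjusted p-values over all genes tested are limma's. On simulated data for the comparison of groups DAPA (1st d) and MI, 95.3% of genes changed 4-fold were called. The changed genes there were well covered and were given a dispersion (squared relative spread between rats beyond counting) of 0.1. Within group MI, Myl4 and Myl7 spread more widely (SD 28.4 and 8.06 around means of 29.3 and 6.21 FPKM), so that share does not apply to them. Per-rat values were compared by exact two-sided permutation tests (scipy 1.17.1). Named were the 5 members, their ratio counterparts, at most 3 genes per list with the smallest p in group MI compared with group Sham and at most 2 in group DAPA (1st d) compared with group MI, and the 3 genes nearest to each member in pattern; genes named in counts of 5 or fewer, and Nppa, were added after their values were seen. Of 135 listed genes, 125 were found and 10 were not analysed here. Promoter windows came from the RefSeq table of build GRCr8. The alternatives were another pseudocount (0.1), no filter, other scalings, all 9 rats in 1 fit, a replicate block, adjusted p-values and each rat left out. p-values measure the spread between rats. The study states 3 biological replicates per group. Each sample title names 2 items whose meaning is not given, and each column was taken as 1 rat.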

Additional observations from a re-analysis of the deposited data

How the results depend on the processing

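The calls of Myl4 and Myl7 in group DAPA (1st d) compared with group Sham were kept in all 14 alternatives each, with 1 rat left out giving 2.81 to 4.68 and 2.10 to 2.63; the limma adjusted p of Myl4 ran up to 0.0543, without Sham 3. In group DAPA (1st d) compared with group MI, Myl4 kept 1.63 but lost its call with no filter, with all 9 rats in 1 fit and with adjusted p-values (adjusted p from 0.558 to 0.675), and had 1.43 with no call when scaled to all recovered reads; 1 rat left out gave 1.04 to 2.37. Myl7 kept 1.79 and gained a call with all 9 rats, and 1 rat left out gave 0.96 to 2.73. In group MI compared with group Sham, 1 rat left out gave 1.18 to 3.05 for Myl4 (2.90 and a call when scaled to all recovered reads) and -0.40 to 1.37 for Myl7. For Sln it gave -1.64 to -0.79, from the 3 of 6 such fits in which Sln passed the filter. The scaling to all recovered reads was chosen after seeing the data.

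In no comparison did every pair of rats with the same number have deviations correlated above 0.1 (from -0.304 to 0.195 over all such pairs). Such pairs averaged 0.103 in group DAPA (1st d) compared with group Sham, against -0.051 for pairs with different numbers. In group DAPA (1st d) compared with group MI they averaged -0.172, against 0.086. The deviations came from means of few rats, so the correlations depend on each other. This check therefore cannot tell whether the number is only a name. With a replicate block in group DAPA (1st d) compared with group MI, Myl4 kept 1.63 and was not called, Myl7 kept 1.79 and was called (limma adjusted p = 0.814 for each), and 71 genes were called higher instead of 126.

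Scaled to all recovered reads, the genes called were 6098 higher and 290 lower (1634 and 1390 as deposited) for group MI compared with group Sham, 4433 and 233 (1274 and 1090) for group DAPA (1st d) compared with group Sham, and 63 and 296 (126 and 147) for group DAPA (1st d) compared with group MI, where pseudocount 0.1 gave 224 lower, adjusted p-values gave 0 and 0, and 1 rat left out gave 38 to 408 higher and 73 to 238 lower. The same scaling turned Sln in group DAPA (1st d) compared with group Sham to 0.15 and, in group MI compared with group Sham, Myl2 to 0.74, Myl3 to 0.95 and Pln to 0.60; scaling on genes outside the mitochondrial genome turned Kcnj5 there to -0.0081. Scaling to all recovered reads moved the median of all genes from -0.01 to 0.92 in group MI and from 0.01 to 0.74 in group DAPA (1st d), each compared with group Sham. The turns of sign under it thus went with a shift of all genes. Why the denominators differ from the recovered reads was not tested.

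With 1 rat left out, values that turned sign ran as follows. In group MI compared with group Sham they ran from -0.16 to 0.025 for Bmp10, -0.010 to 1.60 for Myl7 against Myl2, -1.13 to 0.24 for Sln against Pln, -0.67 to 0.041 for Kcnj3 against Kcnj5, -0.32 to 0.22 for Kcnj5, -0.94 to 0.27 for Myl2, -0.66 to 0.45 for Myl3 and -1.03 to 0.036 for Pln. In group DAPA (1st d) compared with group MI they ran from -0.10 to 1.24 for Sln, -0.046 to 0.046 for Bmp10, -0.50 to 1.11 for Myl7 against Myl2, -1.21 to 0.029 for Sln against Pln, -0.69 to 0.00058 for Kcnj3 against Kcnj5 and -0.074 to 1.44 for Myl7 against the cardiomyocyte markers. In group DAPA (1st d) compared with group Sham they ran from -0.99 to 0.31 for Sln, -0.26 to 0.094 for Kcnj3 and -0.15 to 0.030 for Bmp10. That range of Sln, and the range of Kcnj5 in group MI compared with group Sham, came from the 3 of 6 fits that the gene passed the filter in. Of the named genes of the lists, 34 of 41 higher calls were kept in all alternatives and 4 of 21 lower calls, 14 of which were lost when scaled to all recovered reads. Depth limits Sln, Kcnj3 and Bmp10, which had 58, 108 and 13 reads in all 9 rats.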
